A study of Mus musculus with 6 samples.

Results

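The genes described here are 18 integrin subunits and 21 focal adhesion components, 39 in all, picked by symbol from the 26231 genes measured by RNA sequencing in mouse embryonic fibroblasts (MEF). Every listed symbol has a row in the table. The design sets 3 libraries labelled MEF WT (control) against 3 labelled MEF Nf2 KO, and replicates 1, 2 and 3 of each line carry the marks A, B and 2018. By the labels the cells came from FVB embryos of approximately 14 days (a day less by the methods of the study) and spent 24 h without serum before RNA was taken. By the methods, the cells of both lines carried loxP-flanked Nf2 alleles and had been immortalized with SV40 large T antigen. The control was then transduced with a CMV-GFP lentivirus and the other line with a CMV-Cre GFP lentivirus. Each group is thus a single transduced line, and the genotype, the presence of Cre and any drift of a line in culture cannot be told apart. Nothing in the labels says that the replicates were separate cultures, so p-values here measure the spread between these libraries, which may be technical.

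Integrins are pairs of an alpha and a beta subunit that span the cell membrane, hold matrix proteins outside and couple to actin inside. The alpha subunit largely sets the ligand, which is the RGD sequence of fibronectin and vitronectin, a collagen or a laminin. Where integrins cluster, talins and kindlins bind the beta tail, vinculin, alpha-actinins and tensins link it to actin, and kinases with their adaptors signal from it. This assembly is the focal adhesion, by which fibroblasts grip and pull on matrix. Merlin, the product of Nf2, ties membrane proteins to cortical actin. The study stained vinculin and filamentous actin in these lines to look at focal adhesions, and the comparison asks how the RNA for the parts of such adhesions differed between the libraries.

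Nf2 was measured at 14.3, 13.7 and 13.1 RPKM in control replicates 1, 2 and 3 and at 15.4, 12.9 and 13.9 RPKM in the replicates labelled Nf2 KO. RPKM divides the reads of a gene by its exon length and by the size of the library, so levels can be set side by side between genes. The RNA of the targeted gene was not lower over the gene as a whole (log2 difference 0.03, standard error 0.10, limma adjusted p = 0.987). The table holds 1 value per gene and none per exon, so this value does not check a deletion that leaves the rest of the transcript in place, and every direction given below follows the labels. Inferred depth was 13429411 to 61105213 reads in the control and 18043711 to 72911559 in the other line, with the 2018 libraries deepest. All 10 fibroblast markers passed the filter on low values, and their summed level was 2030 to 2830 RPKM in the control and 1430 to 2000 RPKM in those labelled MEF Nf2 KO. Pdgfra, the PDGF receptor of fibroblasts, was lower there by a log2 difference of -2.36 and the fibroblast marker S100a4 by -1.21 (limma adjusted p = 0.0329 each). Defining markers of other cell types were at or near 0, with Epcam and Cdh1 of epithelium at up to 0.216 RPKM, Ptprc of leukocytes at up to 0.00896 RPKM and Pecam1 of endothelium at up to 0.0286 RPKM. Of the 7 macrophage, 6 endothelial, 7 epithelial, 6 skeletal muscle and 6 neural and Schwann cell markers measured, only Cd68 (up to 8.1 RPKM), Kdr (up to 4.39 RPKM), Krt19 (up to 39.5 RPKM) and the neural markers Map2, Stmn2 and Tubb3 passed the filter. Map2 was higher in the libraries labelled MEF Nf2 KO by a log2 difference of 1.25 (limma adjusted p = 0.0399), while Stmn2 and Tubb3 differed by -0.64 and -0.43 and did not pass (adjusted p = 0.541 and 0.664, with 0.0462 for Stmn2 in the fit with the replicate block described below). Acta1, skeletal muscle actin, did not pass the filter but had 6.25 and 2.57 RPKM in replicate 2 of the control and of the other line. The sum of 4 smooth muscle and myofibroblast markers was 455, 2450 and 729 RPKM in control replicates 1, 2 and 3 and 783, 2800 and 1140 RPKM in the replicates labelled Nf2 KO, so it was highest in replicate 2 of either line and within each replicate number higher where the label is Nf2 KO.

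Among the integrin subunits, Itgb1, the beta subunit shared by most alpha subunits of fibroblasts, stood far above the rest. Its level was 249, 450 and 307 RPKM in control replicates 1, 2 and 3 and 289, 434 and 312 RPKM in the replicates labelled Nf2 KO. It made up 76.7% to 89.2% of the summed RPKM of the 6 beta subunits in each library. The next beta subunit was Itgb5, which pairs with alpha v in a vitronectin receptor, with 69.3, 70.0 and 89.0 RPKM in the control and 71.1, 50.7 and 76.6 RPKM in the other line. The 12 alpha subunits together summed to 97.8 to 130 RPKM, less than Itgb1 alone in any library.

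The most abundant alpha subunits bind RGD ligands. Itgav, which pairs with several beta subunits to bind vitronectin and latent TGF-beta, had 33.1, 43.3 and 34.3 RPKM in the control and 39.1, 45.6 and 34.1 RPKM in those labelled MEF Nf2 KO. Itga5, the alpha subunit of the classical fibronectin receptor, had 30.0, 53.9 and 27.0 RPKM against 20.6, 29.5 and 22.2 RPKM. Its lines overlapped, and the highest value of either line was in replicate 2. Itga3 led the laminin-binding class and Itga11 the collagen-binding class, with means over the 6 libraries of 17.2 and 11.6 RPKM. Of the remaining members, Itga6, Itgb3, Itga7, Itga10 and Itga8 had means of 5.6, 2.0, 1.85, 1.01 and 1.0 RPKM. Itga9, Itga2, Itga1, Itgb4, Itgb8, Itgb7 and Itga4 lay below 1 RPKM, down to 0.038 RPKM for Itga4, the VCAM and fibronectin receptor of leukocytes. When the 39 genes were ordered by mean RPKM, the range of every gene overlapped that of its neighbour, so no step in that order exceeded the spread over the libraries.

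**Figure D1:**
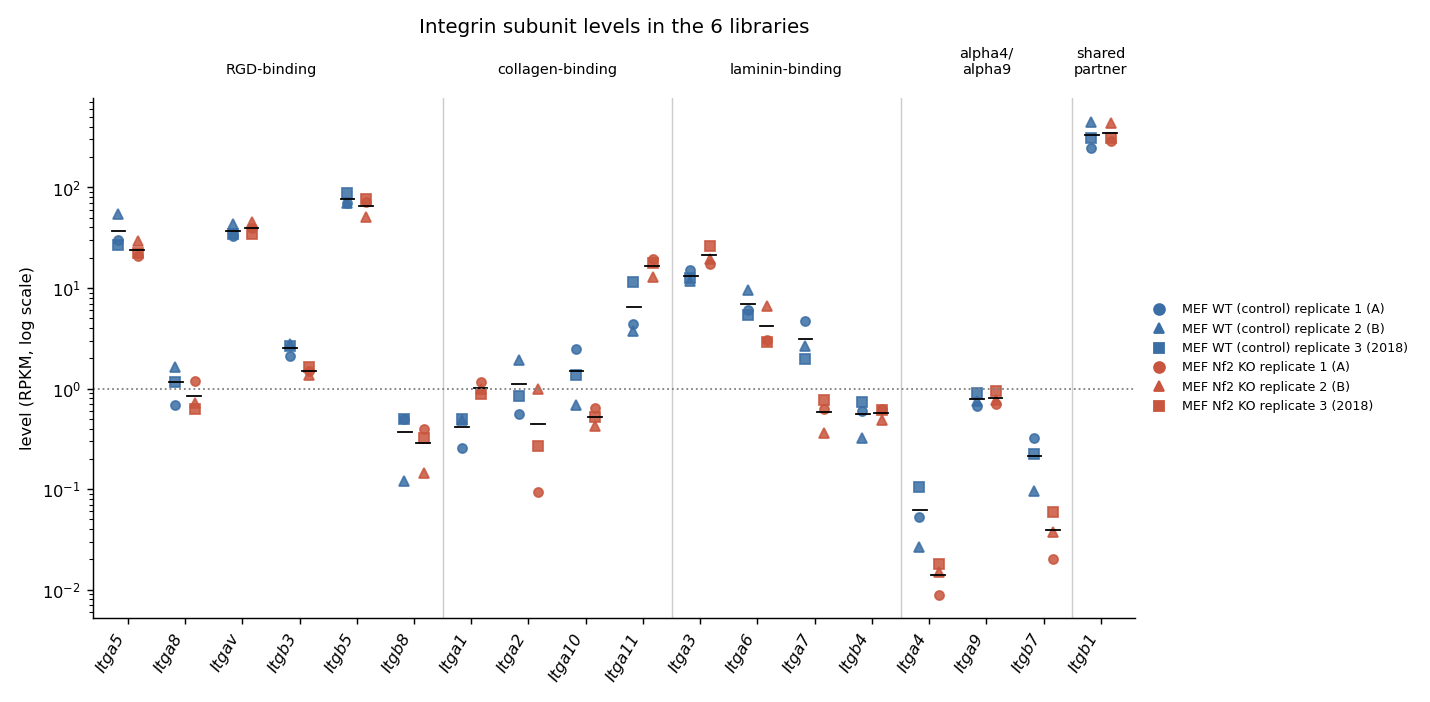
Level of each of the 18 integrin subunits in RPKM (log axis) by ligand class, with 1 point per library, colour for the line, marker shape for the replicate number, a short bar for the mean of 3 libraries and a dotted line at 1 RPKM. Itgb1 lies between 249 and 450 RPKM, Itga11, Itga3, Itga7 and Itgb3 are tested subunits whose lines do not overlap, and Itga4 and Itgb7 are below 1 RPKM in every library.

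Among the focal adhesion components the actin-binding linkers were highest. Actn1, an alpha-actinin that cross-links actin filaments, had 154, 262 and 173 RPKM in the control and 145, 265 and 228 RPKM in those labelled MEF Nf2 KO. Its close relative Actn4 had 85.7, 129 and 101 RPKM against 88.4, 106 and 110 RPKM. Zyx, a LIM protein that gathers at adhesions and stress fibres under tension, had 72.6, 132 and 88.0 RPKM against 89.2, 217 and 140 RPKM. Both Actn1 and Zyx peaked in replicate 2 of either line.

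Tln1, the main talin of fibroblasts, and Vcl, vinculin, ranged from 50.3 to 72.5 RPKM and from 45.3 to 63.2 RPKM over the 6 libraries. Tln2, the other talin, reached 1.11 RPKM at most. Vinculin, the protein stained in the study, had a line difference of 0.13 on the log2 scale (standard error 0.13, limma adjusted p = 0.914), no larger than its standard error. The kinases Ptk2 (FAK) and Src had means of 11.7 and 25.7 RPKM, the adaptors Bcar1, Pxn (paxillin) and Nedd9 51.4, 10.1 and 8.27 RPKM. The scaffold Ilk had a mean of 51.1 RPKM and its partners Parva and Lims1 23.5 and 37.6 RPKM, while Lims2, the second member of the PINCH family, had 2.15 RPKM. About 15.5% of the 31-base stretches in the transcripts of Ilk, and 31.8% in those of Itga10, also occur in another gene, most in Gm6263 and Gm42957, so the levels of these 2 members are uncertain. For the other members the share was at most 7.86%.

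**Figure D2:**
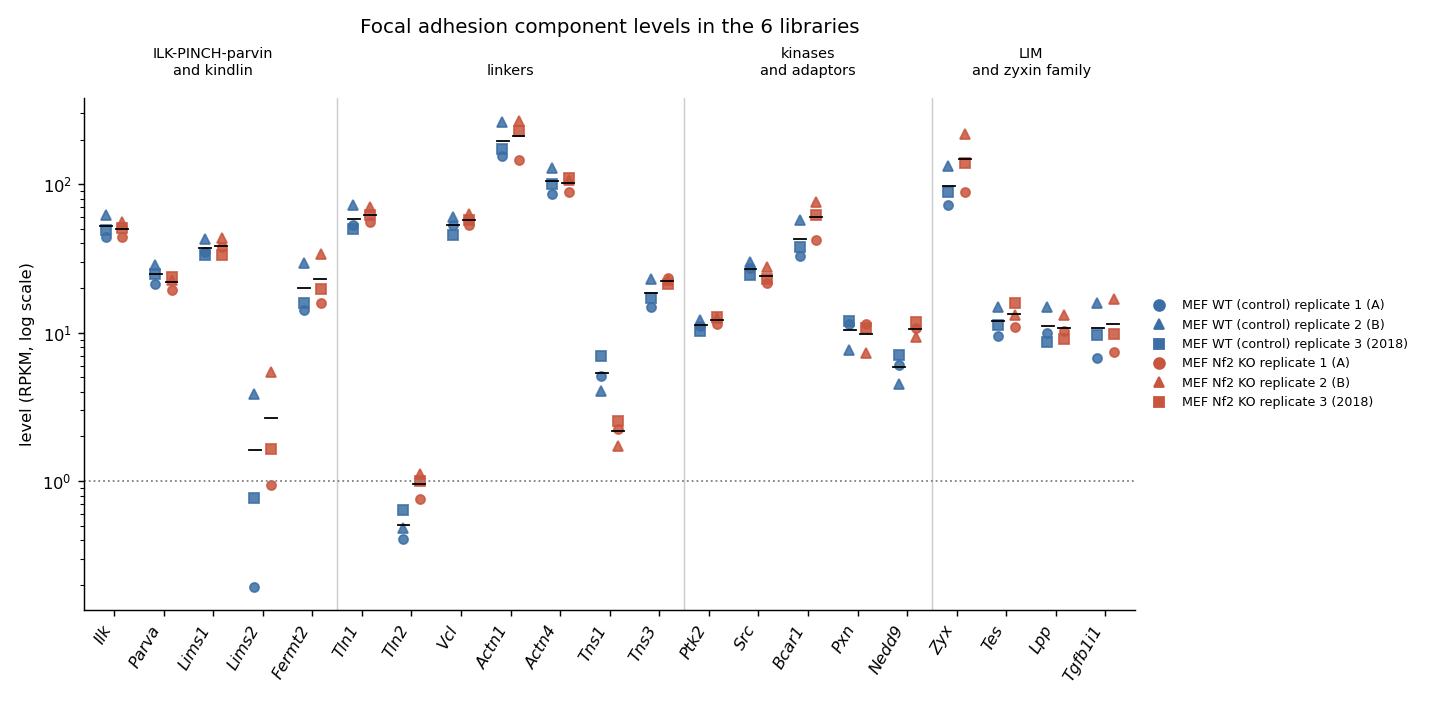
Level of each of the 21 focal adhesion components in RPKM (log axis) by role, with 1 point per library, colours, shapes and bars as for the integrins and a dotted line at 1 RPKM. Replicate 2 (triangles) is the highest of its line for Lims2, Fermt2, Zyx, Bcar1 and Tgfb1i1 in both lines and the lowest for Pxn and Nedd9, while the lines are apart for Tns1, Nedd9 and Tln2.

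The regions just before the start sites of 3 members are shown because the results below concern genes that moved together with replicate 2, with the contractile genes Acta2 and Tagln among them. CArG boxes are the sites of serum response factor, which drives such contractile genes, and GGAATG, the core of the site bound by TEAD factors, was searched because Merlin acts upstream of their partner YAP. The windows are from RefSeq (GRCm38.p6), searched on both strands in the 250 bases before and 50 bases after each start site. Of the 39 members 29 had at least 1 window, 35 in all, and each match in a member lay before its start site. A CArG box was present in 2 of the 35 windows (5.71%), those of Fermt2 and Vcl, against 1.63% of 32851 windows of all genes. GGAATG was present in 5 (14.3%), those of Actn4, Itga10, Itgb1, Lpp and Vcl, against 14.7%. Below, capitals mark the CArG box in Fermt2 (chr14:45530119-45530315, minus strand) and Vcl (chr14:20929148-20929397, plus strand) and GGAATG in Vcl and Itgb1 (chr8:128685404-128685653, plus strand). Each runs 5′ to 3′ toward the start of the annotated gene, and a match of letters is a description and not a bound site.
Fermt2: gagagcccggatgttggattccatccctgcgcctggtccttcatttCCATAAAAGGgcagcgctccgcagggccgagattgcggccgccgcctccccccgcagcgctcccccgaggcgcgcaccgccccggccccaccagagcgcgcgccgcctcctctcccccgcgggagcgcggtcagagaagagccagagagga
Vcl: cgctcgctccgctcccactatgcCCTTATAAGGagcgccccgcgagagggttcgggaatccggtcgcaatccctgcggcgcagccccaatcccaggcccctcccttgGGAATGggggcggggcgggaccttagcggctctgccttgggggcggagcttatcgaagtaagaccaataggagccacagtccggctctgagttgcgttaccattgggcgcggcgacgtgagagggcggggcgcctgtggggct
Itgb1: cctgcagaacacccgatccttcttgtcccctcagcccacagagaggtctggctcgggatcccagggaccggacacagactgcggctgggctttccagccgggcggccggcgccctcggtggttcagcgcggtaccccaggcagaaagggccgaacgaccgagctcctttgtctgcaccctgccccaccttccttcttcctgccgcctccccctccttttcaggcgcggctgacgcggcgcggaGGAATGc
The CArG box of Fermt2 begins 151 bases before the end of the printed stretch, which stops at the GENCODE gene, and the RefSeq start lies 53 bases further in, 204 bases from the box. That of Vcl begins 227 bases before the RefSeq start, where its stretch ends. GGAATG begins 143 bases before the start in Vcl and 7 bases before it in Itgb1.

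Between the lines, 0 of the 30 members that passed the filter of 1 RPKM in 3 libraries passed an adjusted p of 0.05 (limma on log2(RPKM + 1)), against 117 of 11067 genes or 1.06%. At an unadjusted p under 0.05 there were 6 members and 1097 genes. Differences are given on that log2(RPKM + 1) scale, which understates changes of genes with low values. Replicate 2 deviated alike in both lines, but whether replicates 1 and 3 pair by number was not tested. A fit that takes the replicate number as a block called 9 of the 30 members, against 833 genes or 7.53% (2.99% higher, 4.54% lower). Of the 9, 5 were higher and 4 lower where the label is MEF Nf2 KO. The higher members were Itga11, Nedd9, Lims2, Zyx and Bcar1 and the lower ones Itga7, Tns1, Itga6 and Itgb3. Itga7 passed the filter only through the control, where it was high, so it had to differ and its call carries no weight. The median difference of the 30 members was 0.07 and that of all genes tested -0.01, and the medians of the absolute differences were 0.19 and 0.11. In the blocked fit with replicates 1, 2 or 3 left out, 4, 3 and 6 members passed, against 2.89%, 4.1% and 3.79% of all genes, and Tns1 and Nedd9 were among them each time. Lims2, Bcar1 and Itgb3 passed in none of these 3 fits. Itga6 was lost without replicate 1 (adjusted p = 0.0521) and Zyx without replicate 2 or 3 (0.159 and 0.127, all from limma). Leaving out replicate 2 without the block brought 3 members past the threshold (Itga6, Nedd9 and Tns1), against 4.37% of all genes, and leaving out control replicate 2 alone brought 1, Tns1, against 1.28%.

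In 6 of the 30 members the lines did not overlap at all (Itga11, Itga3 and Nedd9 higher, Itgb3, Itga7 and Tns1 lower), against 15.1% of all genes tested. For Itga7 the filter favours such a gap, as said above. In 18 of the 30 the difference had the same sign within replicates 1, 2 and 3, against 46.9% of all genes. With 3 libraries against 3, the exact permutation test of a single member cannot give less than p = 0.1, which it gave for each of these 6.

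**Figure D3:**
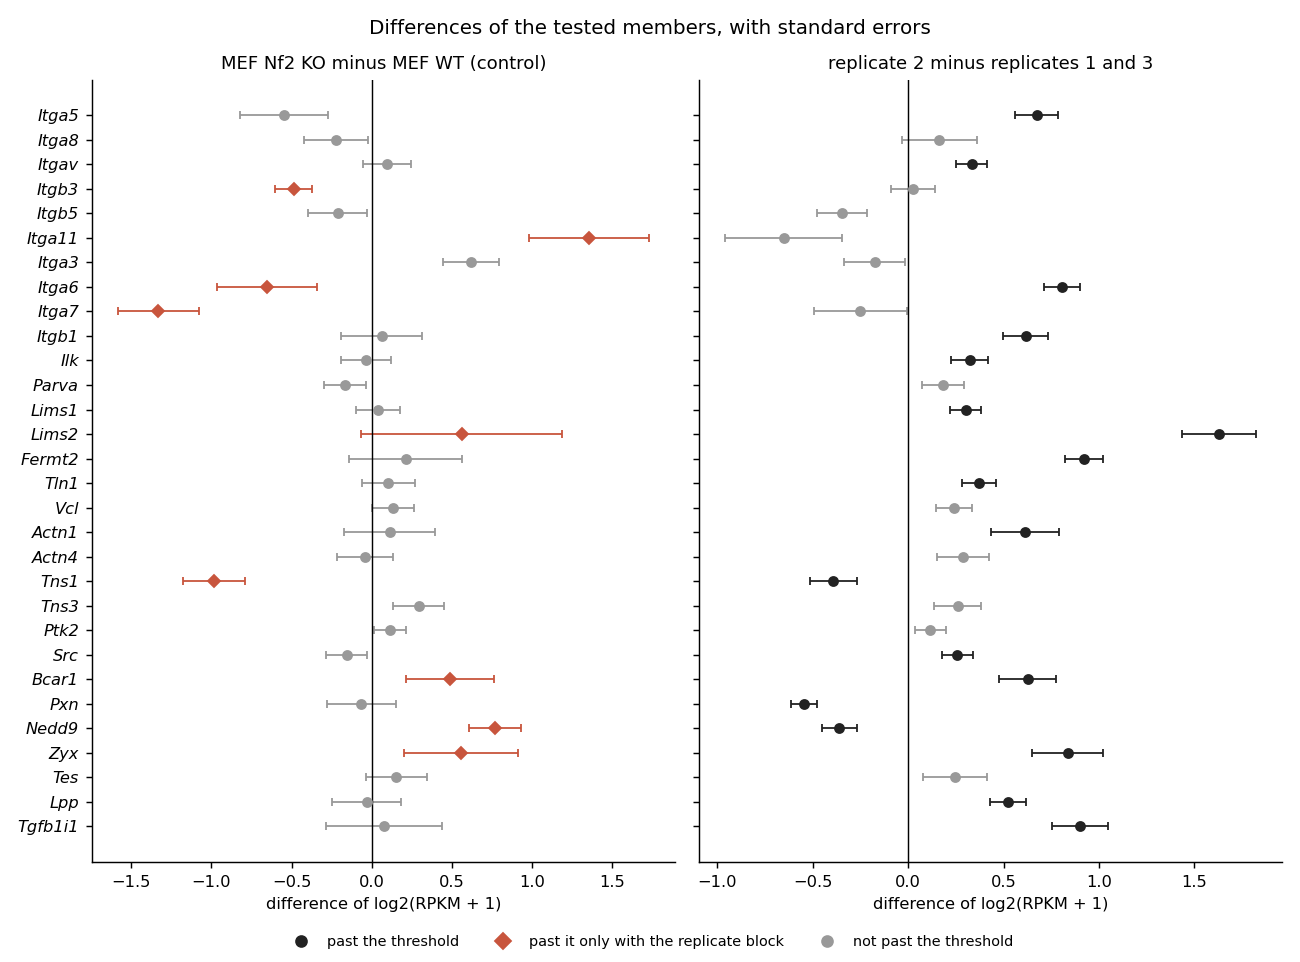
Differences of the 30 tested members on the log2(RPKM + 1) scale with their standard errors from limma, for the lines without the block (left) and for replicate 2 against replicates 1 and 3 (right). On the left 0 members are past the threshold without the block and the 9 diamonds mark those past it with the block, and on the right 18 members are past it, 15 of them higher in replicate 2.

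The collagen-binding class was dominated by Itga11, the receptor for fibrillar collagens on fibroblasts (chromosome 9, 62677826 to 62783982, plus strand, GRCm38). It had 4.40, 3.71 and 11.5 RPKM in control replicates 1, 2 and 3 and 19.5, 12.8 and 17.7 RPKM in those labelled MEF Nf2 KO. The lowest value of the latter thus lay just above the highest control value, that of replicate 3. The difference was 1.35 (standard error 0.37, limma adjusted p = 0.227 without the block, 0.0381 with it), and within replicates 1, 2 and 3 it was 1.92, 1.55 and 0.58. In the blocked fit without replicates 1, 2 or 3 of both lines it was 1.07, 1.25 and 1.74 (limma adjusted p = 0.146, 0.195 and 0.0059), so the call was lost without replicate 1 or 2.

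The other collagen receptors were under the filter and have no test. Itga1, which favours the collagen of basement membranes, had 0.256, 0.492 and 0.499 RPKM in the control and 1.15, 0.983 and 0.879 RPKM in the other line, on 63.8 reads or more. Itga10 had 2.45, 0.691 and 1.36 RPKM against 0.635, 0.422 and 0.516 RPKM. Neither overlapped between the lines, and they differed in opposite directions. Itga2 had 0.562, 1.91 and 0.84 RPKM against 0.093, 0.981 and 0.27 RPKM, with the highest value of each line in replicate 2. Summed over the class, collagen-binding alpha subunits were 7.67, 6.81 and 14.2 RPKM in the control and 21.4, 15.2 and 19.4 RPKM in those labelled MEF Nf2 KO, and Itga11 made up 54.5% to 81.0% and 84.3% to 91.4% of these sums.

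Of the laminin receptor subunits, Itga3, which binds the laminins of basement membranes, had 15.2, 11.8 and 12.7 RPKM in the control and 17.4, 19.4 and 26.4 RPKM in those labelled MEF Nf2 KO, without overlap. Its difference was 0.62 (standard error 0.17) and did not pass either fit (limma adjusted p = 0.233 without and 0.0837 with the block), and in the blocked fit without replicates 1, 2 or 3 it was 0.84, 0.59 and 0.43 (adjusted p = 0.0345, 0.268 and 0.177). Within replicates 1, 2 and 3 it was 0.18, 0.67 and 1.00.

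Itga6, a laminin receptor subunit that can also pair with Itgb4 (chromosome 2, 71745616 to 71858416, plus strand), had 6.0, 9.59 and 5.37 RPKM in the control and 3.06, 6.68 and 2.90 RPKM in the other line. Within every replicate number the control was the higher, although the lines overlapped because replicate 2 was high in each. The difference was -0.65 (standard error 0.31, limma adjusted p = 0.599, and 0.0141 with the block). Itga7, the laminin receptor subunit best known from muscle (chromosome 10, 128933818 to 128958282, plus strand), had 4.73, 2.65 and 1.98 RPKM against 0.622, 0.359 and 0.776 RPKM. It passed the filter through the control libraries alone, so its difference of -1.33 (standard error 0.25, limma adjusted p = 0.0831, and 0.0242 with the block) is given as a description. Itgb4, the beta subunit of hemidesmosomes, stayed between 0.323 and 0.740 RPKM with overlapping lines.

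The summed RPKM of the 3 laminin-binding alpha subunits overlapped between the lines, at 20 to 25.9 and 21.0 to 30.1 RPKM. Within that sum Itga3 held 49.1% to 63.3% in the control and 73.4% to 87.8% in the libraries labelled MEF Nf2 KO. Of all 12 alpha subunits, the RGD-binding ones held 64.0% to 75.7% in the control and 53.0% to 64.1% in the other line, and the collagen-binding ones 5.22% to 14.5% and 12.9% to 20.5%, so both shares overlapped between the lines. These shares add genes that share libraries and are given without a test.

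**Figure D4:**
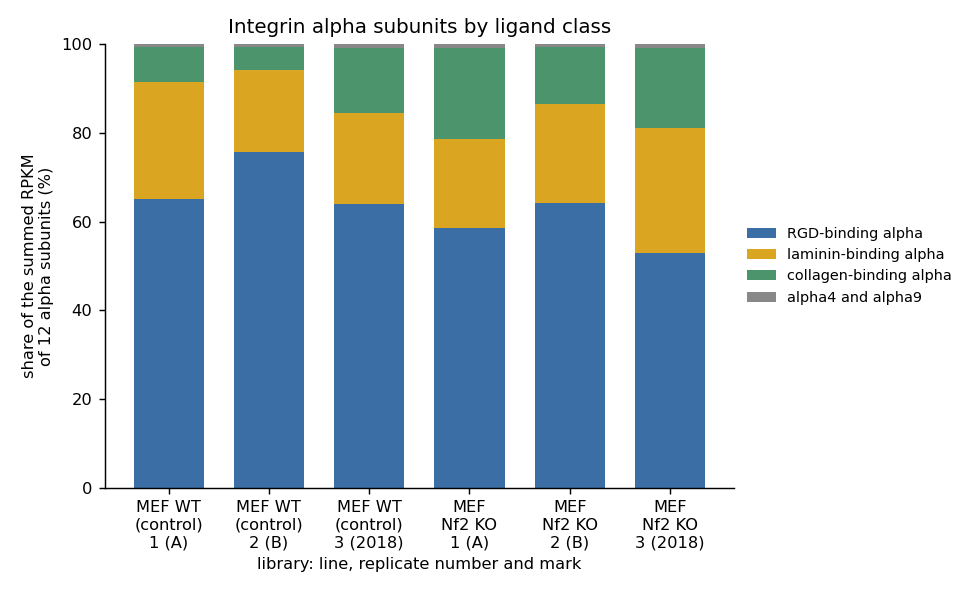
Share of each ligand class in the summed RPKM of the 12 integrin alpha subunits, in percent, with 1 stacked bar per library. RGD-binding subunits hold 53.0% to 75.7% in every library, and the collagen-binding share is 5.22% to 14.5% in the control and 12.9% to 20.5% in the libraries labelled MEF Nf2 KO.

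Among the RGD-binding class, Itgb3, which pairs with alpha v in a vitronectin receptor (chromosome 11, 104608000 to 104670476, plus strand), had 2.10, 2.78 and 2.64 RPKM in the control and 1.48, 1.36 and 1.64 RPKM in those labelled MEF Nf2 KO. The lines did not overlap, and the difference was -0.49 (standard error 0.12, limma adjusted p = 0.168, and 0.0391 with the block). Itga5 was lower within every replicate number (-0.52, -0.85 and -0.27), with a difference of -0.55 that did not pass (standard error 0.27, limma adjusted p = 0.628, and 0.0521 with the block). In the blocked fit without replicates 1, 2 or 3 it was -0.56, -0.40 and -0.68 (adjusted p = 0.179, 0.134 and 0.0391). Itgav and Itgb5 differed by 0.10 and -0.21 and passed neither fit.

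Itga8, a receptor subunit for nephronectin, differed by -0.22 (standard error 0.20), and its replicate 1 went the opposite way to replicates 2 and 3. Itgb8, which pairs with alpha v to bind latent TGF-beta, was under the filter, with 0.119 to 0.503 RPKM and overlapping lines. In the alpha4 and alpha9 family, Itga9, a receptor subunit for tenascin and osteopontin, lay between 0.676 and 0.955 RPKM. Itga4 had 0.0531, 0.0264 and 0.106 RPKM against 0.00893, 0.0148 and 0.0181 RPKM, and its leukocyte partner Itgb7 had 0.322, 0.0952 and 0.224 RPKM against 0.02, 0.0374 and 0.0593 RPKM. The lines of both lay apart with the control above, but in replicates 1 and 2 labelled Nf2 KO they rest on 1.0 to 4.0 reads. Itgb1 itself differed by 0.06 (standard error 0.25, limma adjusted p = 0.993), less than the gap between replicate 2 and the others in either line.

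Among the linkers, Tns1, a tensin of fibrillar adhesions (chromosome 1, 73910231 to 74124449, minus strand), had 5.10, 4.02 and 6.97 RPKM in the control and 2.24, 1.73 and 2.56 RPKM in those labelled MEF Nf2 KO. The groups did not overlap, with a difference of -0.99 (standard error 0.19, limma adjusted p = 0.0887, and 0.00543 with the block). Its relative Tns3 had 14.9, 23.1 and 17.2 RPKM against 23.3, 22.5 and 21.3 RPKM, a difference of 0.29 that did not pass (standard error 0.16, limma adjusted p = 0.688). Tln2, under the filter, had 0.409, 0.480 and 0.635 RPKM against 0.759, 1.11 and 1.00 RPKM without overlap. Tln1, Actn1 and Actn4 differed by 0.10, 0.11 and -0.04, each less than its standard error.

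Among kinases and adaptors, Nedd9, a CAS family docking protein (chromosome 13, 41309581 to 41487362, minus strand), had 6.10, 4.50 and 7.06 RPKM in the control and 10.8, 9.29 and 11.8 RPKM in those labelled MEF Nf2 KO. Its lines lay apart, with a difference of 0.77 (standard error 0.16, limma adjusted p = 0.117, and 0.00615 with the block). Bcar1, the founding CAS protein (chromosome 8, 111710474 to 111743809, minus strand), had 33.0, 57.3 and 37.6 RPKM against 42.4, 76.4 and 61.9 RPKM. It was higher within every replicate number while the lines overlapped, and its difference was 0.49 (standard error 0.27, limma adjusted p = 0.706, and 0.0345 with the block). With replicates 1, 2 or 3 left out of the blocked fit, Bcar1 did not pass (adjusted p = 0.0663, 0.097 and 0.0925). Ptk2, Src and Pxn differed by 0.11, -0.16 and -0.07 and passed neither fit.

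In the LIM family, Zyx (chromosome 6, 42349630 to 42360213, plus strand) was higher within replicates 1, 2 and 3 by 0.29, 0.71 and 0.66. The difference was 0.56 (standard error 0.36, limma adjusted p = 0.774, and 0.0375 with the block). Tes, Lpp and Tgfb1i1 (Hic-5, a relative of paxillin) differed by 0.15, -0.03 and 0.07 and passed neither fit. In the ILK group, Lims2 had 0.194, 3.88 and 0.768 RPKM in the control and 0.939, 5.46 and 1.64 RPKM in the other line. Replicate 2 was far above the others in each line, and within the numbers the difference was 0.70, 0.41 and 0.58. It passed with the block alone (0.56, limma adjusted p = 0.0242, and 0.933 without it) and rests on 8.0 reads in control replicate 1. Ilk, Parva, Lims1 and Fermt2, the kindlin of fibroblasts, differed by -0.04, -0.17, 0.04 and 0.21 and passed neither fit.

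**Figure D5:**
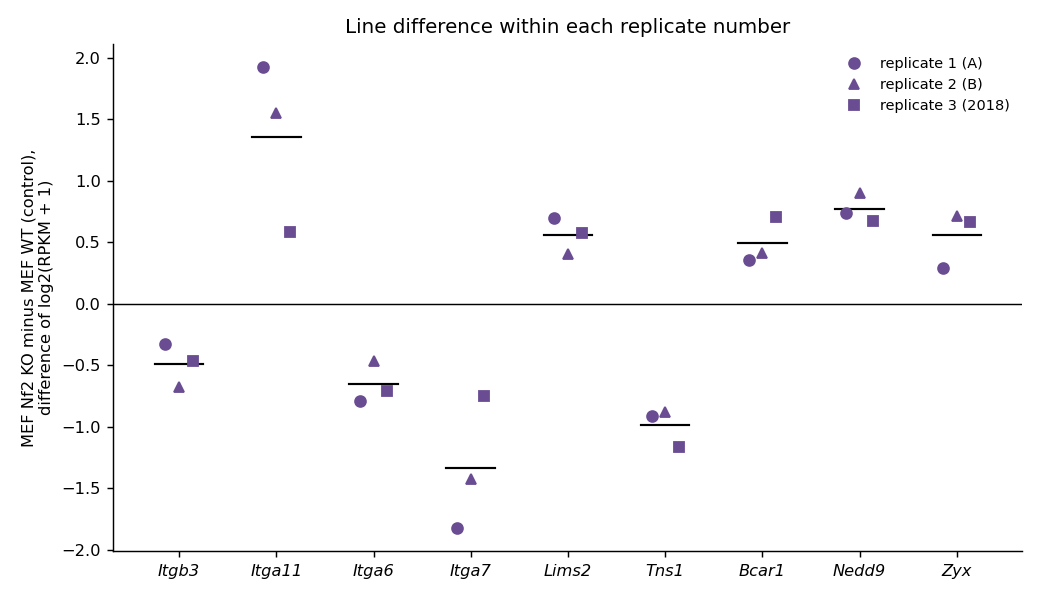
Difference between the lines on the log2(RPKM + 1) scale within replicate 1, 2 and 3 for the 9 members past the threshold with the replicate block, with 1 point per replicate number and a bar at the mean. All points of a member lie on the same side of 0, and they spread most for Itga11 (1.92, 1.55 and 0.58) and Itga7 (-1.82, -1.42 and -0.75).

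Replicate 2, marked B, was compared with replicates 1 and 3 in a fit that keeps the line as a block. Of the 30 members 18 passed (limma, adjusted p under 0.05), against 3386 of 11067 genes or 30.6%. Without the line term it called 9 members, against 17.9% of all genes. The fits of the lines, with 9 members called with the replicate block and 0 without, differ in their terms, so these counts are not set against each other. Of the 18, 15 were higher in replicate 2, against 10.8% of all genes, and 3 were lower, against 19.8%. Lims2, among the higher ones, passed the filter only with both replicate 2 libraries, where it was high, so its call carries no weight. The median difference was 0.27 in the members and -0.08 over all genes. The 2 libraries of replicate 2 did not overlap with the other 4 in 14 of the 30 members, against 46.6% of all genes. In 22 of the 30 the difference of replicate 2 was larger than that of the lines, against 67.7%. Both counts lie near the shares of all genes and are no result about the members. This split was examined with earlier results of these data known, so its p-values describe these libraries.

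The direction over all genes depended on the scaling. Of the genes called for replicate 2, 35.3% were higher as deposited, but 52.5% after median centring and 52.4% after quantile normalization. Among the members 15 were higher and 3 lower as deposited, 16 and 1 after median centring and 15 and 1 after quantile normalization, where Tns1 and Nedd9 were no longer called. The count rested on both replicate 2 libraries and on control replicate 3, since 4 members passed without control replicate 2, 6 without replicate 2 labelled Nf2 KO and 11 without control replicate 3. The share of all genes called fell as well, to 7.52%, 6.32% and 20.9%. The 4 that passed in the first case were Fermt2, Itga6, Pxn and Lims2, the last under the limit of the filter said above. Whatever sets the B libraries apart is not named in the labels.

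The rise of Lims2 in replicate 2 was the largest among the members, at 1.63 (standard error 0.19, limma adjusted p = 0.00263). The rise was 1.75 in the control and 1.51 in the libraries labelled MEF Nf2 KO. Apart from replicate 2, Lims2 reached 1 RPKM only in replicate 3 labelled Nf2 KO (1.64 RPKM), so its rise is given as a description. Fermt2 (chromosome 14, 45458795 to 45530118, minus strand), which binds beta tails and helps activate integrins, had 14.2, 29.6 and 15.8 RPKM in the control and 15.9, 34.0 and 19.6 RPKM in the other line. Both replicate 2 libraries were above the other 4, by 0.92 (standard error 0.10, adjusted p = 0.00174 from limma). Ilk and Lims1, which form a complex with Parva at the same place, were higher by 0.32 and 0.30 (limma adjusted p = 0.042 and 0.029), while Parva differed by 0.18 and did not pass (adjusted p = 0.248).

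In the LIM family, Tgfb1i1 had 6.76, 15.9 and 9.69 RPKM in the control and 7.47, 16.9 and 9.77 RPKM in those labelled MEF Nf2 KO. Replicate 2 stood above the other 4 libraries by 0.90 (standard error 0.15, limma adjusted p = 0.00688), nearly alike in the control (0.89) and the other line (0.91). Zyx was higher by 0.84 (standard error 0.19, limma adjusted p = 0.0177), and Lpp, a zyxin relative at 8.66 to 14.9 RPKM, by 0.52 (adjusted p = 0.00854). Tes differed by 0.24 and did not pass (adjusted p = 0.302).

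Of the integrins, Itga6 rose most in replicate 2, by 0.81 (standard error 0.09, limma adjusted p = 0.00225), followed by Itga5 at 0.67 (standard error 0.12, adjusted p = 0.00688), Itgb1 at 0.62 (standard error 0.12, adjusted p = 0.0102) and Itgav at 0.33 (standard error 0.08, adjusted p = 0.0232). For Itga6, Itgb1 and Itgav both replicate 2 libraries lay above all others, and for Itga5 replicate 2 labelled Nf2 KO at 29.5 RPKM lay just under control replicate 1 at 30.0 RPKM. The remaining tested integrins Itga11, Itgb5, Itga7, Itga3, Itgb3 and Itga8 had differences of -0.65, -0.35, -0.25, -0.18, 0.03 and 0.16 that did not pass, with adjusted p-values of 0.0817 to 0.877 from limma.

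Linkers and adaptors followed in part. Actn1 was higher by 0.61 and Tln1 by 0.37 (limma adjusted p = 0.0391 and 0.0218), while Actn4, Tns3 and Vcl, whose promoter window holds a CArG box, had 0.29, 0.26 and 0.24 and did not pass (adjusted p = 0.146, 0.151 and 0.0922). After median centring Vcl passed as well. Bcar1 was higher by 0.63 and Src by 0.26 (limma adjusted p = 0.0213 and 0.0487), and Ptk2 differed by 0.12 and did not pass. Src was lost without the trend and robust settings of limma.

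The members that were lower in replicate 2 were adaptors and a tensin. Pxn (chromosome 5, 115506676 to 115555987, plus strand), the adaptor paxillin, had 11.5, 7.70 and 11.9 RPKM in the control and 11.4, 7.30 and 10.8 RPKM in those labelled MEF Nf2 KO. Both replicate 2 libraries were below the other 4, by -0.55 (standard error 0.07, limma adjusted p = 0.00284), and the gap was -0.54 in the control and -0.55 in the other line. Tns1 and Nedd9 were lower by -0.39 and -0.36 (limma adjusted p = 0.048 and 0.0242), the calls that depended on scaling above. Of the untested members, Itgb8 and Itgb4 were lowest and Itga2 highest in the replicate 2 libraries without overlap.

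The contractile markers moved with these members. Acta2, smooth muscle actin, had 302, 1620 and 501 RPKM in the control and 625, 2070 and 851 RPKM in those labelled MEF Nf2 KO, and was higher in replicate 2 by 1.78 (limma adjusted p = 0.00421). Tagln and Cnn1 were higher by 1.96 and 1.21 (adjusted p = 0.00501 and 0.00944 from limma), so 3 of the 4 smooth muscle and myofibroblast markers rose there, and Myh11, a defining marker of smooth muscle, was at 0.0347 RPKM or less. Of the 10 fibroblast markers 6 were lower in replicate 2, against 19.8% of all genes as deposited, a share that depended on the scaling. The endothelial marker Kdr was higher by 1.02 at 1.32 to 4.39 RPKM, while the other 5 endothelial markers were at up to 0.1 RPKM. Between the lines Acta2 was higher as well in the fit with the replicate block, by 0.72 (limma adjusted p = 0.0487, and 0.906 without the block), while Tagln and Cnn1 differed by 0.08 and -0.09 and did not pass. The part of these markers in the differences of the members, between the lines or in replicate 2, was not tested, and in such bulk libraries a change in the share of cells and a change in RNA per cell cannot be told apart.

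The difference of replicate 2 was compared between the lines through an interaction term. With limma 0 of the 30 members passed (2 had an unadjusted p under 0.05), and of 11067 genes 0% did (313 had an unadjusted p under 0.05). With 2 residual degrees of freedom this fit has little precision. The interaction ranged from -0.60 for Itga8 to 0.30 for Itga11 among the members.

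The ligands of these receptors were taken from a list of 29 matrix and matricellular genes, 22 of which were tested. Between the lines 2 passed, both lower, against 1.06% of all genes (9 with the replicate block, 2 higher and 7 lower, against 7.53%), with a median of -0.32 against -0.01 over all genes. Of the 2 higher with the block, Lama5, a laminin chain, passed the filter only through the libraries labelled MEF Nf2 KO, so its call carries no weight. It had 2.0, 1.01 and 1.66 RPKM there against 0.848, 0.542 and 0.956 RPKM in the control. The other, Thbs1, had 649, 821 and 813 RPKM in those labelled MEF Nf2 KO against 124, 471 and 217 RPKM, without overlap. Its difference was 1.69 (standard error 0.45, limma adjusted p = 0.206, and 0.0335 with the block). Fn1, fibronectin, the ligand of Itga5 with Itgb1, had 455, 477 and 491 RPKM in the control and 307, 314 and 295 RPKM in those labelled MEF Nf2 KO. The lines lay far apart with little spread, a difference of -0.63 (standard error 0.09, limma adjusted p = 0.039). Spp1, osteopontin, an RGD ligand, was lower by -2.65 (standard error 0.37, limma adjusted p = 0.0352), from 62.5 ± 26.8 to 8.51 ± 2.11 RPKM (SD, n = 3 each).

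In replicate 2, 10 of the 22 ligands passed, 5 higher and 5 lower, against 30.6% of all genes (10.8% higher, 19.8% lower). The largest were Ctgf and Cyr61, matricellular integrin ligands, at 3.17 and 2.10, Npnt, the ligand of Itga8, at 1.49, and Tnc, tenascin C, at 1.44, all higher, and Col3a1, a fibrillar collagen chain, at -2.37 (limma adjusted p = 0.00241, 0.00157, 0.0018, 0.0283 and 0.00159). Ctgf reached 739 RPKM in control replicate 2 and 673 RPKM in replicate 2 labelled Nf2 KO, against 44.5 to 141 RPKM in the other 4 libraries. Fn1 differed by 0.04 in this comparison and did not pass.

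Of 52 further adhesion genes that are no members, 40 were tested, and between the lines only Pak1, a kinase that phosphorylates Merlin, passed (1.06% of all genes did), lower by -1.02 (standard error 0.15, limma adjusted p = 0.0399). It had 10.2, 8.71 and 11.7 RPKM in the control and 4.19, 3.92 and 5.51 RPKM in those labelled MEF Nf2 KO, without overlap. With the replicate block 4 passed, 2 higher and 2 lower, against 7.53% of all genes. In replicate 2, 14 of the 40 passed, 10 higher and 4 lower, against 30.6% of all genes (10.8% higher, 19.8% lower), with a median of 0.14 against -0.08. A share so near that of all genes is no result about this list. Among them were Tns2, a tensin, at -0.82, and Pdlim5, Ajuba and Flna, a filamin that cross-links actin, at 0.79, 0.68 and 0.59 (limma adjusted p = 0.00338, 0.00921, 0.00512 and 0.00864).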

How the data were processed

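RNA was sequenced from 3 libraries labelled MEF WT (control) and 3 labelled MEF Nf2 KO. The authors deposited 1 table of normalized values, taken here as RPKM: multiplied by exon length (GENCODE vM21), 83.6% to 85.4% of those worth 20 reads or fewer were whole multiples of a step within 0.05 (10% by chance), and the step gives the depth. The build is mm10 per the labels. The aligner and counting tool are not given in the sources used here. A gene was tested if it reached 1 RPKM in 3 or more libraries (11067 genes), with limma 3.58.1 in R 4.3.3 on log2(RPKM + 1), two-sided, using trended and robust eBayes and Benjamini-Hochberg over all of them, at a threshold of 0.05, after a check on simulated data. The lines were compared without covariates, after the unpaired test of the study, and replicate 2 with the line as a block. Between libraries of the same number, deviations from the line means correlated at 0.552, 0.819 and 0.516 for replicates 1, 2 and 3. Deviations within a line cancel out, so a split of replicate 2 shared by the lines also makes replicates 1 and 3 correlate. Libraries of different numbers were not correlated, so a pairing of replicates 1 and 3 was not tested, and the block follows the labels. Libraries of a line spread by 2.64 to 5.51 times the sampling noise, so none was a duplicate. All 39 members are named, with full statistics for those past the threshold in any fit. From the lists of ligands and other adhesion genes, those past it between the lines and the 5 largest differences of replicate 2 are named. The ligands higher with the block are named as well. The members, lists and tests were chosen with earlier results of these data known. Alternatives were other scalings, pseudocounts and filters, the block, the 2018 mark as a term and libraries left out. The blocked fits without a replicate were chosen after seeing the data. Promoter windows come from RefSeq (GRCm38.p6), and figures were drawn with matplotlib 3.10.9.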

Additional observations from a re-analysis of the deposited data

Results flagged for a closer look

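Itgb3, the beta subunit of a vitronectin receptor, moved in opposite directions with replicate 2 in the 2 lines. In the control, replicate 2 had the highest value of its line, 2.78 RPKM against 2.10 and 2.64 RPKM. Among the libraries labelled MEF Nf2 KO it had the lowest, 1.36 RPKM against 1.48 and 1.64 RPKM. Itga8 also differed in sign, by 0.46 in the control and -0.14 in the other line, with a larger interaction of -0.60. For Itgb3 the interaction of line and replicate 2 was -0.29 on the log2(RPKM + 1) scale and did not pass (limma adjusted p = 1.0).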

How the results depend on the processing

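Between the lines 0 members passed with limma as deposited, and 0 after median centring or quantile normalization, with a filter of 5 RPKM or none, with plain eBayes, with the smaller pseudocount of 0.1 or with the 2018 mark as a term (3 to 10 had an unadjusted p under 0.05). In the fit with the replicate block 9 passed, since the block takes the shared replicate differences out of the error. Leaving out replicates or single libraries gave 0 to 3 members without the block, 3 without replicate 2 and 1 without control replicate 2, and 3 to 6 with the block (4, 3 and 6 without replicates 1, 2 and 3). For replicate 2, 18 members passed, and 16 to 18 under the other scalings, pseudocount, limma settings and the filter of 5 RPKM. With no filter 5 passed, with 26231 genes tested (3.37% of them called), and with no line term 9 (17.9%). Leaving out single libraries gave 4 to 18, with 4 without control replicate 2, 6 without Nf2 KO replicate 2 and 11 without control replicate 3, while the share of all genes called fell from 30.6% to 7.52%, 6.32% and 20.9%. Against replicate 1 or 3 alone 13 and 15 passed (24.3% and 24.4% of all genes). No member that was called in a fit changed its direction in these settings. Changes of sign were seen only among uncalled differences, in up to 7 members between the lines and up to 2 for replicate 2. Members with few reads, such as Itga4 and Itgb7, cannot be compared at this depth.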
